A study of Homo sapiens with 18 samples.

Results

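Expression of 10 genes that control how glucose enters the cell and how it passes the first committed steps of glycolysis was described in 3 HNSCC cell lines with and without HGF. The genes are the glucose transporters SLC2A1 and SLC2A3, the hexokinases HK1 and HK2, the phosphofructokinases PFKP, PFKL and PFKM, the regulatory enzymes PFKFB3 and PFKFB4, and the opposing enzyme FBP1. They were chosen by gene symbol, and all 10 were found among the 19901 genes of the count table and passed the filter on low counts that left 15475 genes for testing. The 18 libraries of mRNA came from Detroit 562, grown from a metastatic site of a pharyngeal tumor, FaDu, from a primary tumor of the hypopharynx, and SCC-9, from a primary tumor of the tongue. For each line there were 3 untreated control libraries and 3 from cells stimulated with 50 ng/ml HGF for 16 h, while the record of the series gives 48 h. The medium was MEM-α for Detroit 562 and FaDu, but DMEM F12 with added HEPES and hydrocortisone for SCC-9, so that medium and line cannot be told apart for SCC-9. Each tumor site is represented by 1 line. The experiment was run 3 times, and the libraries of a line that carry the same number are treated below as 1 run. Whether the runs used separately thawed cultures is not stated, so p-values measure at most the spread between these runs. Those given with a block for the replicate number leave out the spread that the libraries of a run share. Total counts per library ranged from 35304770 to 44003970.

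Glucose crosses the plasma membrane through facilitative carriers, of which GLUT1, the product of SLC2A1, is the common carrier of epithelial tumors and GLUT3, the product of SLC2A3, has a high affinity for glucose. Hexokinases trap it as glucose 6-phosphate, and phosphofructokinase then makes fructose 1,6-bisphosphate, the step that commits the sugar to glycolysis. The PFKFB enzymes make and break down fructose 2,6-bisphosphate, a strong activator of phosphofructokinase, and fructose-1,6-bisphosphatase, the product of FBP1, runs the committed step backwards in gluconeogenesis. HGF is the ligand of the receptor tyrosine kinase Met, and the comparison of treated with untreated cells asks which of these genes respond to it and whether the lines differ.

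The squamous origin of the lines was seen in part. KRT5 was abundant in all of them, whereas KRT14 had 30 to 52 counts per library in Detroit 562. The summed level of 6 squamous and epithelial markers in Detroit 562 was 2291 to 3480 CPM (counts scaled to library size) in control and 1401 to 2276 CPM in HGF libraries, ranges that do not overlap, and 2 of the 6 genes, KRT5 and CDH1, fell (adjusted p = 0.0451 and 0.00364). Of all tested genes 11.7% were called down and 6.16% up in Detroit 562, by the rule given below. With the replicate block, which called 21.5% of all tested genes, DSG3 was also called, at -0.74 on the log2 scale (adjusted p = 7.28e-05). KRT5 held most of the sum, with means of 2105 CPM in control and 1129 CPM in HGF libraries. EPCAM went the other way, from 426 to 493 CPM (log2 fold change 0.21, adjusted p = 0.0968), and was not called. TP63 and KRT14 had log2 fold changes of -0.37 and -0.20 (adjusted p = 0.0482 and 0.787) and were not called either. The leukocyte genes PTPRC and CD3E had at most 3 counts in a library of Detroit 562, whereas CD68 of the same list rose by 0.66 on the log2 scale (adjusted p = 0.041). Of 4 fibroblast markers, PDGFRB and COL3A1 were too low to test, and COL1A1 and COL1A2 fell in Detroit 562. Neither of the 2 endothelial markers was called in Detroit 562, without or with the block. In FaDu no marker of these lists was called without the block. With it KRT5, COL1A1 and CDH5 were called down there, at log2 fold changes of -0.58, -0.59 and -0.86. CD68 was called up in FaDu at 0.51, and the block called 5.6% of all tested genes in that line. In SCC-9 no marker was called, without or with the block. The part of these shifts in the results below was not tested.

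Sequence upstream of the annotated starts is shown for HK2, PFKP and FBP1, the members that passed the test for HGF in Detroit 562, to let the letters that glycolytic regulators are known to bind be seen. RefSeq (GRCh38.p14) gave 26 starts for 9 of the members, and SLC2A3 was not matched. The motifs were searched on both strands of the 300 bases around each start, namely ACGTG and GCGTG, the cores bound by hypoxia-inducible factors, CACGTG, the E box bound by MYC and its relatives, and TGANTCA, the site of AP-1. Each CACGTG also holds ACGTG on both strands and is counted under both. Capitals mark every match, a match on the other strand reads CACGT or CACGC, each sequence is the 250 bases before a start, 5′ to 3′ on the gene's strand, and GENCODE 44 annotates no exon of the gene itself in the 4 windows.
HK2, first start (chr2:74833877-74834126, + strand, 111 bases of it in the exon of the divergent transcript HK2-DT): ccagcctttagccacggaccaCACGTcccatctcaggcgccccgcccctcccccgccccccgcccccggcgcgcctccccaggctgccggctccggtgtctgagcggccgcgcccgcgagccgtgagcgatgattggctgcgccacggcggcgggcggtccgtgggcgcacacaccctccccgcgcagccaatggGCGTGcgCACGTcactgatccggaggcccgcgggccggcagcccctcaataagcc
HK2, second start (chr2:74834920-74835169, + strand, in an intron of the longer HK2 transcript): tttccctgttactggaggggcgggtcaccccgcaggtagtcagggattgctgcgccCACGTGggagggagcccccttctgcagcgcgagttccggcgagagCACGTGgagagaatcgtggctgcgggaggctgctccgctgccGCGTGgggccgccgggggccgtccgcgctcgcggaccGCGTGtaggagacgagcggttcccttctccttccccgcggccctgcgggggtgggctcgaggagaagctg
PFKP, the start with an ACGTG among its 4 (chr10:3068939-3069188, + strand, in an intron of longer PFKP transcripts): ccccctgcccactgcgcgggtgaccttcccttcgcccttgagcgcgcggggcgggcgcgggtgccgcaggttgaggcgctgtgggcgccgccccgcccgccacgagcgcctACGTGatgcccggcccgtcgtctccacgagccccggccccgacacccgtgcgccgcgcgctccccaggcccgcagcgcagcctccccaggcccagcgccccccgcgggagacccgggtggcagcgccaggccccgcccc
FBP1 (chr9:94639519-94639768, − strand, in an intron of longer FBP1 transcripts): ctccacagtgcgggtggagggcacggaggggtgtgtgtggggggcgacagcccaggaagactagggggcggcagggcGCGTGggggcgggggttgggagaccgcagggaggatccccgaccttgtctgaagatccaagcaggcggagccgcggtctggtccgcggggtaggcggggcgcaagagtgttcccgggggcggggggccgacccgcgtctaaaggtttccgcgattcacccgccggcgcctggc
The second start of HK2 held CACGTG at 2 places, 194 and 149 bases before the start, and GCGTG at 2 others. The first held ACGTG at 2 places and GCGTG at 1. ACGTG was found near 6 of the 26 starts, in 4 of 9 members, and near 21.4% of all 35116 RefSeq starts of the same length. GCGTG was found near 10 starts, in 8 of 9 members, against 36.5% of all starts. CACGTG was found near 2 starts, those of HK2 and PFKFB3, against 7.26%, and TGANTCA near 2 starts of HK1, against 7.71%. Members with several starts had more places to match, and a match is a description of the letters only.

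HGF raised 2 of the 10 members, HK2 and PFKP, in Detroit 562 and lowered 1, FBP1. HK2 rose 1.57-fold, PFKP rose 1.36-fold, and the mean of FBP1 went from 5.20 ± 0.786 to 2.24 ± 1.38 CPM (SD, n = 3). A change was called at an adjusted p below 0.1 (edgeR) with an absolute log2 fold change of 0.4 or more. By this rule 17.9% of all tested genes were called in Detroit 562, 6.16% up and 11.7% down. Without the minimum fold change 6 members passed, beside 34.1% of all tested genes. With the replicate block SLC2A3 joined the genes that rose, beside 21.5% of all tested genes called. The median log2 fold change over the members was -0.13, against -0.0056 over all tested genes. In FaDu none of the members was called (0.0258% of all tested genes, and 5.6% with the block), by edgeR or by DESeq2 with or without its prior, and HK2 and PFKP had an unadjusted p under 0.05, as did 8.06% of all tested genes. In SCC-9 none was called either (0% of all tested genes, and 1.97% with the block), again by each tool, with 0 members at an unadjusted p under 0.05, beside 4.14% of all tested genes.

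**Figure D1:**
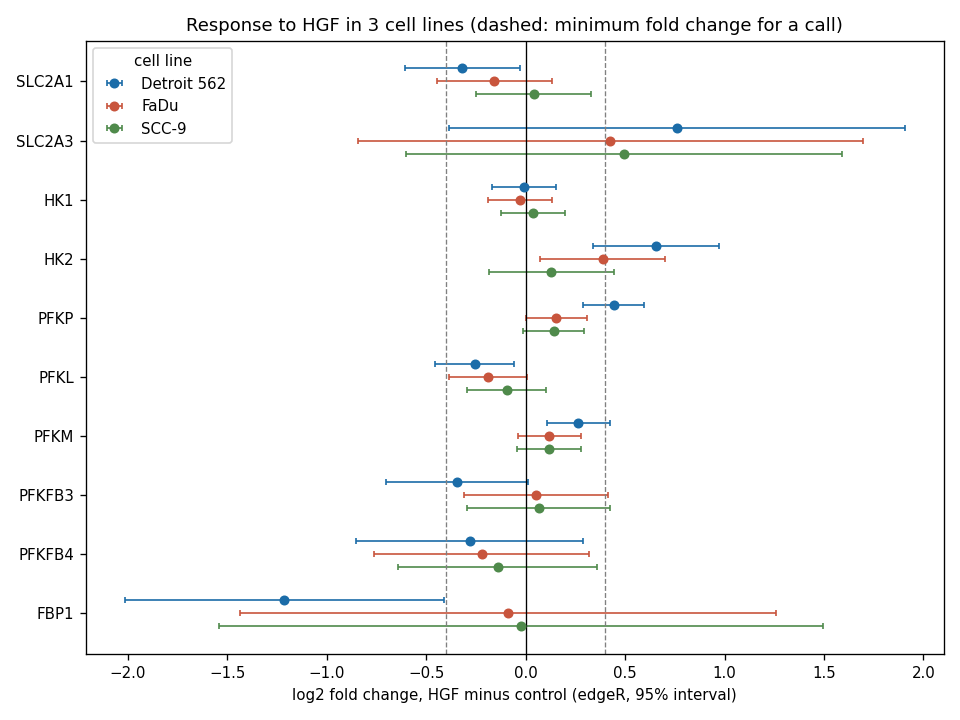
Log2 fold change of HGF minus control for each gene in Detroit 562, FaDu and SCC-9 from edgeR, with 95% intervals, and dashed lines at the minimum of 0.4 for a call. HK2 (0.65, 0.39 and 0.13) and PFKP (0.44, 0.15 and 0.14) lie to the right of 0 in each line, PFKL to the left, and FBP1 in Detroit 562 lies at -1.21.

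The main carrier gene was SLC2A1 (chr1:42925375-42959176). It had the highest mean of the set per kilobase of exon in the controls of each line, where FaDu held 63.1 ± 11.5, SCC-9 45.2 ± 1.54 and Detroit 562 34.7 ± 2.64 CPM per kb (SD, n = 3). In control Detroit 562 PFKP was within this spread, at 33.2 ± 4.25 CPM per kb. Control Detroit 562 had 242, 237 and 209 CPM of SLC2A1 in replicates 1 to 3 and HGF-treated Detroit 562 had 185, 181 and 186 CPM. The treated libraries lay below every control library, a log2 fold change of -0.32 (SE 0.137) with an adjusted p of 0.0989 that fell short of the minimum fold change. With the replicate block it was -0.32 (SE 0.0506, adjusted p = 0.000151), again short of the minimum. Control FaDu had 415, 494 and 342 CPM and HGF-treated FaDu 351, 475 and 295 CPM, with both libraries of replicate 2 highest. SCC-9 stayed between 287 and 321 CPM in all 6 libraries. In bulk libraries, a change in every cell and a change in the share of cells that hold a transcript cannot be told apart.

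SLC2A3 (chr12:7919230-7936275) was rare. Its level was 0.206 ± 0.0565 CPM per kb in control Detroit 562, 0.112 ± 0.0922 in control FaDu and 0.283 ± 0.0445 in control SCC-9, and its share of the summed SLC2A1 and SLC2A3 level stayed at or below 1.64% in every library. Detroit 562 had 48, 52 and 72 counts in control and 98, 62 and 112 in HGF libraries. The counts were higher with HGF in all 3 runs of Detroit 562 and of SCC-9 and in 2 of 3 runs of FaDu. The log2 fold change in Detroit 562 was 0.76 (SE 0.541, adjusted p = 0.322), and with a block for the replicate number it was 0.76 (SE 0.205, adjusted p = 0.00702) and was called. In FaDu, replicate 2 had 63 counts in control and 94 with HGF, and the other 4 libraries had 11 to 27. The paralog SLC2A14, whose sequence is close to that of SLC2A3, had 3 to 24 counts per library, and reads shared by the pair could fall to either gene.

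HK2 (chr2:74833981-74893359) rose in Detroit 562. This hexokinase, which sits at the outer mitochondrial membrane and is low in most normal adult epithelia, had 44.2, 50.2 and 64.5 CPM in the control and 72.7, 75.2 and 102 CPM in the HGF libraries of Detroit 562. The HGF libraries of Detroit 562 lay above all its controls. The mean went from 53.0 ± 10.5 to 83.3 ± 16.4 CPM, a log2 fold change of 0.65 (SE 0.15, adjusted p = 0.00628). FaDu had 52.1, 72.2 and 67.3 CPM in control and 74.1, 90.0 and 86.6 CPM with HGF, again without overlap between the groups. Its log2 fold change was 0.39 (SE 0.149, adjusted p = 0.57) and was not called. With the replicate block it was 0.40 (SE 0.051, adjusted p = 0.000241), 0.396 before rounding and so just under the minimum fold change. SCC-9 had 80.6, 79.8 and 71.1 CPM in control and 88.8, 81.9 and 82.4 CPM with HGF, a log2 fold change of 0.13 (SE 0.148, adjusted p = 1). The value was higher with HGF in each of the 9 pairs of libraries with the same number.

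In the controls the HK2 mean was lowest in Detroit 562 at 53.0 CPM, followed by FaDu at 63.9 CPM and SCC-9 at 77.2 CPM. The HGF-treated means were 83.3, 83.6 and 84.4 CPM, and none of the neighbors in the order of the 6 means differed by the test (adjusted p from 0.106 to 0.982 in edgeR). Of the contrasts between untreated lines that of the lowest with the highest was called, with HK2 lower in untreated Detroit 562 than in untreated SCC-9 by a log2 difference of -0.54 (SE 0.15, adjusted p = 0.00341). The plot of levels in all libraries shows the 3 HGF-treated groups at a like height.

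**Figure D2:**
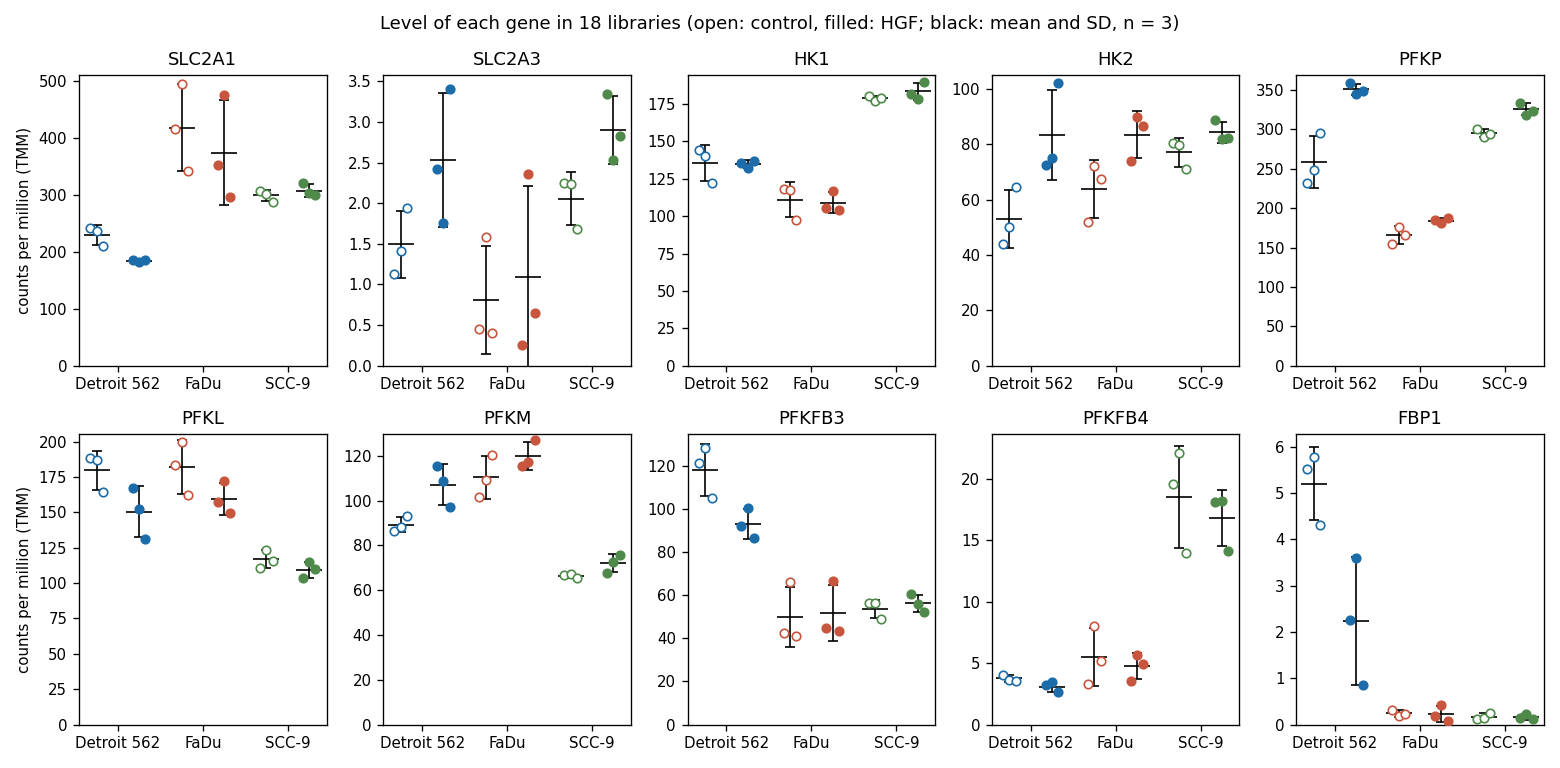
Level of each of the 10 genes in 18 libraries, in CPM after TMM normalization, with 3 control (open) and 3 HGF (filled) libraries per line in the order of their numbers, and the mean and SD of each group in black (bars that would pass below 0 are clipped there). HK2 means are 53.0, 63.9 and 77.2 CPM in the controls and 83.3, 83.6 and 84.4 CPM with HGF, and FBP1 is above 0.8 CPM only in Detroit 562.

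HK1 (chr10:69269984-69401884), the hexokinase of most tissues, was not called for HGF in any line. Its means were 135 ± 11.8 and 135 ± 2.5 CPM in control and HGF-treated Detroit 562, 111 ± 11.7 and 109 ± 7.06 CPM in FaDu, and 179 ± 1.66 and 183 ± 5.90 CPM in SCC-9. The 95% intervals of its log2 fold change with HGF were -0.17 to 0.15 in Detroit 562, -0.19 to 0.13 in FaDu and -0.12 to 0.20 in SCC-9. The share of HK2 in the summed level of both hexokinases per kilobase was examined next. It was 26.2%, 29.4% and 38.1% in control and 38.3%, 39.8% and 46.5% in HGF libraries of Detroit 562. FaDu had 33.9%, 41.7% and 44.5% in control and 44.9%, 47.2% and 49.2% with HGF. SCC-9 stayed between 31.6% and 36.2%. The mean share was 10.3, 7.08 and 1.44 percentage points higher with HGF in Detroit 562, FaDu and SCC-9, and higher in all 9 pairs. Leaving out 1 library moved it to between 4.01 (without control replicate 1) and 9.33 points (without control replicate 3) in FaDu and to between 0.541 (without control replicate 3) and 2.1 points (without HGF replicate 3) in SCC-9. The exact permutation test of 3 against 3 gave p = 0.1 in Detroit 562 and FaDu, the smallest value it can give, and 0.4 in SCC-9, with adjusted values of 0.2, 0.2 and 0.48 over 18 shares.

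Of the phosphofructokinases, PFKP rose in Detroit 562 and PFKL was lower without being called. PFKP (chr10:3066333-3137712), the platelet form of the enzyme, had 232, 248 and 295 CPM in control and 359, 345 and 349 CPM in HGF libraries of Detroit 562. All treated libraries of Detroit 562 lay above all controls, a log2 fold change of 0.44 (SE 0.0726, adjusted p = 0.00123). Without control replicate 1 it was 0.37 and was no longer called. FaDu went from a mean of 166 ± 11.3 to 184 ± 3.65 CPM and SCC-9 from 295 ± 5.20 to 326 ± 7.68 CPM, each without overlap between the groups, with log2 fold changes of 0.15 (SE 0.0727, adjusted p = 0.618) and 0.14 (SE 0.0725, adjusted p = 1). PFKP was higher with HGF in all 9 pairs.

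PFKL (chr21:44300051-44327376), the liver form, was lower with HGF in all 9 pairs. Detroit 562 had 188, 187 and 164 CPM in control and 167, 152 and 131 CPM with HGF, groups that overlap slightly. The log2 fold change was -0.26 (SE 0.0935, adjusted p = 0.0538), below the minimum fold change. With the replicate block it was -0.26 (SE 0.0427, adjusted p = 0.000181), again short of the minimum. FaDu gave -0.19 (SE 0.0934, adjusted p = 0.62) and SCC-9 gave -0.09 (SE 0.0937, adjusted p = 1). PFKM (chr12:48105139-48146404), the muscle form, had 86.6, 88.1 and 93.2 CPM in control and 116, 109 and 97.1 CPM in HGF libraries of Detroit 562, a log2 fold change of 0.26 (SE 0.075, adjusted p = 0.0184) that also fell short of the minimum. PFKM was higher with HGF in all 9 pairs, by 0.12 on the log2 scale in FaDu and in SCC-9 (adjusted p = 0.661 and 1). The gene lies across the start of SENP1 on the other strand, and the counting was stranded.

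As shares of the 3 phosphofructokinase transcripts per kilobase, PFKP made up 50.5 ± 3.91% in control and 58.9 ± 2.30% in HGF-treated Detroit 562, while PFKL went from 30.8 ± 3.73% to 21.9 ± 1.55%. The make-up also differed between the lines. FaDu held 37.4 ± 0.879% PFKP and 35.8 ± 2.99% PFKL in control, close to even, whereas SCC-9 held 63.0 ± 1.2% PFKP and 21.7 ± 1.14% PFKL. Counts include introns while lengths are of exons only, so the balance of isozymes within a line is approximate. With HGF the share of PFKP was 3.39 percentage points higher in FaDu and 2.32 higher in SCC-9, and the difference in the share of PFKL was -5.05 points in FaDu and -2.60 in SCC-9, each in 3 of 3 pairs. The share of PFKM moved by 0.475, 1.66 and 0.284 points in Detroit 562, FaDu and SCC-9. For PFKP the exact permutation p was 0.1 in every line, and for PFKL it was 0.1, 0.2 and 0.1 in the order above, with adjusted values of 0.2, 0.36 and 0.2 for PFKL.

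**Figure D3:**
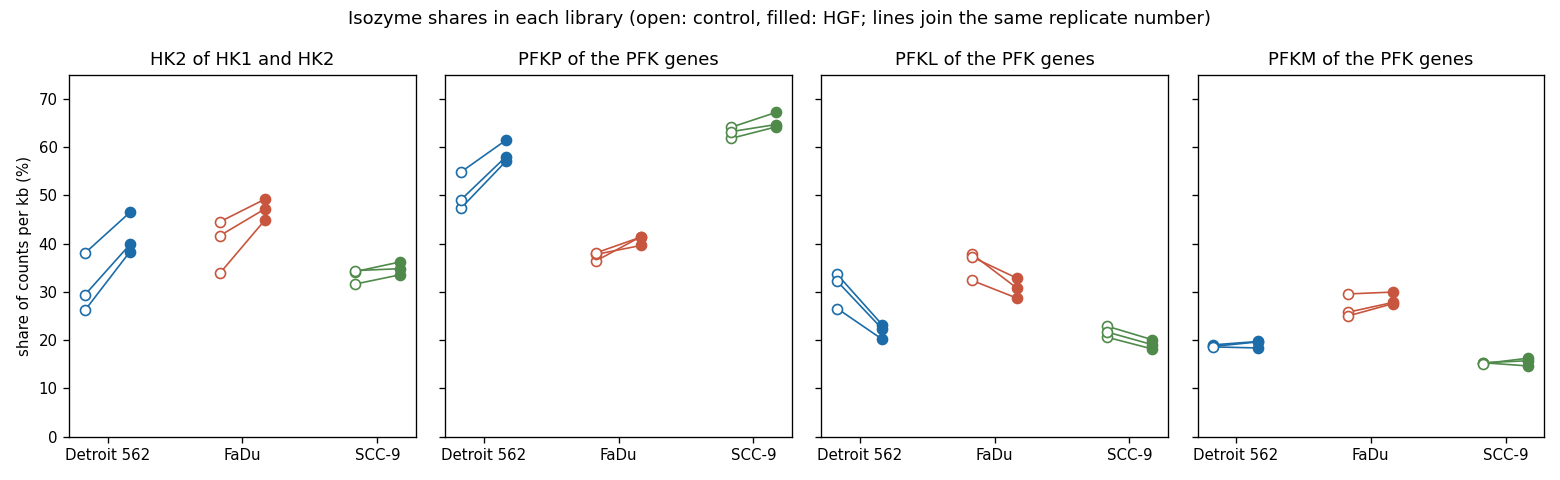
Share of each isozyme transcript in its family, in percent of CPM per kb of exon, for control (open) and HGF (filled) libraries, with lines joining libraries of the same line and number. The HK2 share is higher with HGF in 9 of 9 pairs, the PFKP share is higher and the PFKL share lower in 9 of 9 pairs, and SCC-9 starts with the highest PFKP share, 63.0% on average.

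The kinase-phosphatases behaved differently from each other. PFKFB3 (chr10:6144934-6254644), whose product mainly makes fructose 2,6-bisphosphate, was most abundant in Detroit 562. There it had 121, 128 and 105 CPM in control and 92.2, 100 and 86.3 CPM in HGF libraries, lower with HGF in all 3 pairs and without overlap. The log2 fold change was -0.35 (SE 0.169, adjusted p = 0.143). Without control replicate 3 it was -0.42 (adjusted p = 0.0969) and was called. With the replicate block and all libraries it was -0.34 (SE 0.0437, adjusted p = 2.05e-05), short of the minimum fold change. In FaDu the values were 42.5, 65.8 and 41.2 CPM in control and 44.9, 66.8 and 43.5 CPM with HGF, so that replicate 2 stood apart in both groups and the log2 fold change was 0.05. SCC-9 held 48.7 to 60.3 CPM. Untreated Detroit 562 exceeded untreated FaDu by 1.24 (SE 0.171, adjusted p = 5.18e-06) and untreated SCC-9 by 1.14 (SE 0.171, adjusted p = 1.23e-05) on the log2 scale.

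PFKFB4 (chr3:48517684-48562015), a hypoxia-inducible member of the same family, was highest in SCC-9, with 19.6, 22.1 and 14.0 CPM in control, against 4.05, 3.61 and 3.58 CPM in Detroit 562 and 3.32, 8.01 and 5.21 CPM in FaDu. SCC-9 lay above every library of the other lines. Untreated Detroit 562 was lower than untreated SCC-9 by a log2 difference of -2.30 (SE 0.257, adjusted p = 3.73e-07), and untreated SCC-9 exceeded untreated FaDu by 1.75 (SE 0.249, adjusted p = 6.9e-06). Of the summed PFKFB3 and PFKFB4 level per kilobase it made up 3.10 ± 0.308% in control Detroit 562, 9.78 ± 2.19% in control FaDu and 25.5 ± 2.98% in control SCC-9. The start of PFKFB4 shares 289 bases on the same strand with the end of UCN2, which had 289 to 567 counts in SCC-9 and 47 to 108 in the other lines. Counts of UCN2 came to 22.2% to 81.2% of those of PFKFB4 in single libraries, and how many reads were counted for both genes is unknown, so the level of PFKFB4 is uncertain. With HGF the log2 fold change of PFKFB4 was -0.28 (SE 0.27, adjusted p = 0.473) in Detroit 562. FaDu gave -0.22 (SE 0.255, adjusted p = 0.819) and SCC-9 gave -0.14 (SE 0.236, adjusted p = 1).

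FBP1 (chr9:94603133-94640249) was present in Detroit 562 and fell there with HGF. Control libraries had 234, 213 and 160 counts, or 5.51, 5.79 and 4.31 CPM, and HGF libraries had 91, 127 and 28 counts, or 2.25, 3.61 and 0.852 CPM. No treated library reached the lowest control, and the 3 treated values were themselves spread widely. The log2 fold change was -1.21 (SE 0.379, adjusted p = 0.0287), between -0.83 and -1.72 when any 1 library was left out. FaDu and SCC-9 had 3 to 17 counts per library, and the 95% intervals of their log2 fold changes ran from -1.44 to 1.26 and from -1.54 to 1.49. Untreated Detroit 562 exceeded untreated FaDu by 4.42 (SE 0.484, adjusted p = 3.42e-07) and untreated SCC-9 by 4.90 (SE 0.509, adjusted p = 1.52e-07) on the log2 scale. With HGF, Detroit 562 was above untreated FaDu by 3.21 (adjusted p = 1.87e-05). These differences between lines rest on the low counts of FaDu and SCC-9, so their sizes are uncertain.

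Averaged over the 3 lines, the log2 fold change was 0.39 (SE 0.086, adjusted p = 0.00821) for HK2, 0.25 (SE 0.0419, adjusted p = 0.00281) for PFKP, 0.17 (SE 0.0433, adjusted p = 0.0163) for PFKM and -0.18 (SE 0.054, adjusted p = 0.0293) for PFKL. These 4 genes had an adjusted p below 0.1, as did 28.2% of all tested genes, and none reached the minimum fold change, so that 0 members were called against 6.89% of all tested genes. DESeq2 called 0 as well, and 4 members had an unadjusted p under 0.05, beside 34.5% of all tested genes. The average for HK2 lay so close to the minimum that leaving out any of 10 libraries, among them control replicate 3 of Detroit 562 (0.45), took it past 0.4. The others were HGF replicates 1 and 2 of Detroit 562, control replicates 2 and 3 and HGF replicate 1 of FaDu, and control replicates 1 and 2 and HGF replicates 2 and 3 of SCC-9. SLC2A3 averaged 0.56 (SE 0.32, adjusted p = 0.228), and 0.54 (SE 0.128, adjusted p = 0.00346) with the block, where it was called beside 8.8% of all tested genes. It was also called without control replicate 2 (0.865) or HGF replicate 1 (0.72) of FaDu, and its average was 0.14 without HGF replicate 2 of FaDu. SLC2A1 averaged -0.15 (SE 0.0789, adjusted p = 0.204).

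Whether the lines differed in their response was tested as a difference of log2 fold changes, called at an adjusted p below 0.1 alone. Without the block none of the members passed in Detroit 562 minus FaDu (0.239% of all tested genes) or in Detroit 562 minus SCC-9 (0.924%), with edgeR or DESeq2, and 1 and 2 members had an unadjusted p under 0.05, beside 11.6% and 15.4% of all tested genes. For HK2 the response in Detroit 562 exceeded that in SCC-9 by 0.53 (SE 0.211, 95% interval 0.08 to 0.97, adjusted p = 0.263) and that in FaDu by 0.27 (SE 0.211, 95% interval -0.18 to 0.71, adjusted p = 0.646). For PFKP the differences were 0.30 (SE 0.103, adjusted p = 0.204) and 0.29 (SE 0.103, adjusted p = 0.317). Without control replicate 3 of Detroit 562, PFKP was called against FaDu (0.395, adjusted p = 0.0398) and SCC-9 (0.41, adjusted p = 0.0209), and HK2 against SCC-9 (0.69, adjusted p = 0.0686). Without HGF replicate 3 of Detroit 562 the difference of HK2 was 0.09 from FaDu and 0.35 from SCC-9. That of PFKFB3 from FaDu was -0.65 without control replicate 2 and -0.17 without HGF replicate 2 of FaDu. With the block, which takes the spread between runs out of the error, 5 of 10 members differed between Detroit 562 and SCC-9 (26.9% of all tested genes) and 3 of 10 between Detroit 562 and FaDu (19.1%). HK2 then differed by 0.53 (SE 0.0724, adjusted p = 0.000296) from SCC-9 and by 0.26 (SE 0.0726, adjusted p = 0.0327) from FaDu. PFKFB3 differed by -0.41 (SE 0.0627, adjusted p = 0.000621) and -0.40 (SE 0.063, adjusted p = 0.00147). SLC2A1 differed from SCC-9 by -0.36 (SE 0.0711, adjusted p = 0.0036). For FBP1 the difference was -1.12 (95% interval -2.71 to 0.46) from FaDu and -1.19 (95% interval -2.93 to 0.55) from SCC-9, too wide to tell whether the lines differed. Between FaDu and SCC-9 none of the members was called, without or with the block (0% and 1.32% of all tested genes). For HK2 that difference was 0.26 without the block (95% interval -0.19 to 0.70). With the block it was 0.27 (SE 0.0719, adjusted p = 0.142), about as large as that between Detroit 562 and FaDu. A missing call does not show that these lines responded alike.

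Libraries with the same number, control and HGF of a line, deviated from their group means in the same direction in 8 of 9 pairs for SLC2A3, HK2 and PFKFB4 and in 7 of 9 for PFKL and PFKFB3. For SLC2A1, HK1 and PFKP it was 5 of 9, and for PFKM and FBP1 4 of 9. In Detroit 562, replicate 3 was highest for HK2 and SLC2A3 in both groups and lowest for PFKL, PFKFB3, PFKFB4 and FBP1. In FaDu, replicate 2 was highest for SLC2A1, SLC2A3, HK2, PFKL, PFKFB3 and PFKFB4 in both groups. The plot of paired deviations shows the runs spread along the diagonal for HK2 and PFKFB3.

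**Figure D4:**
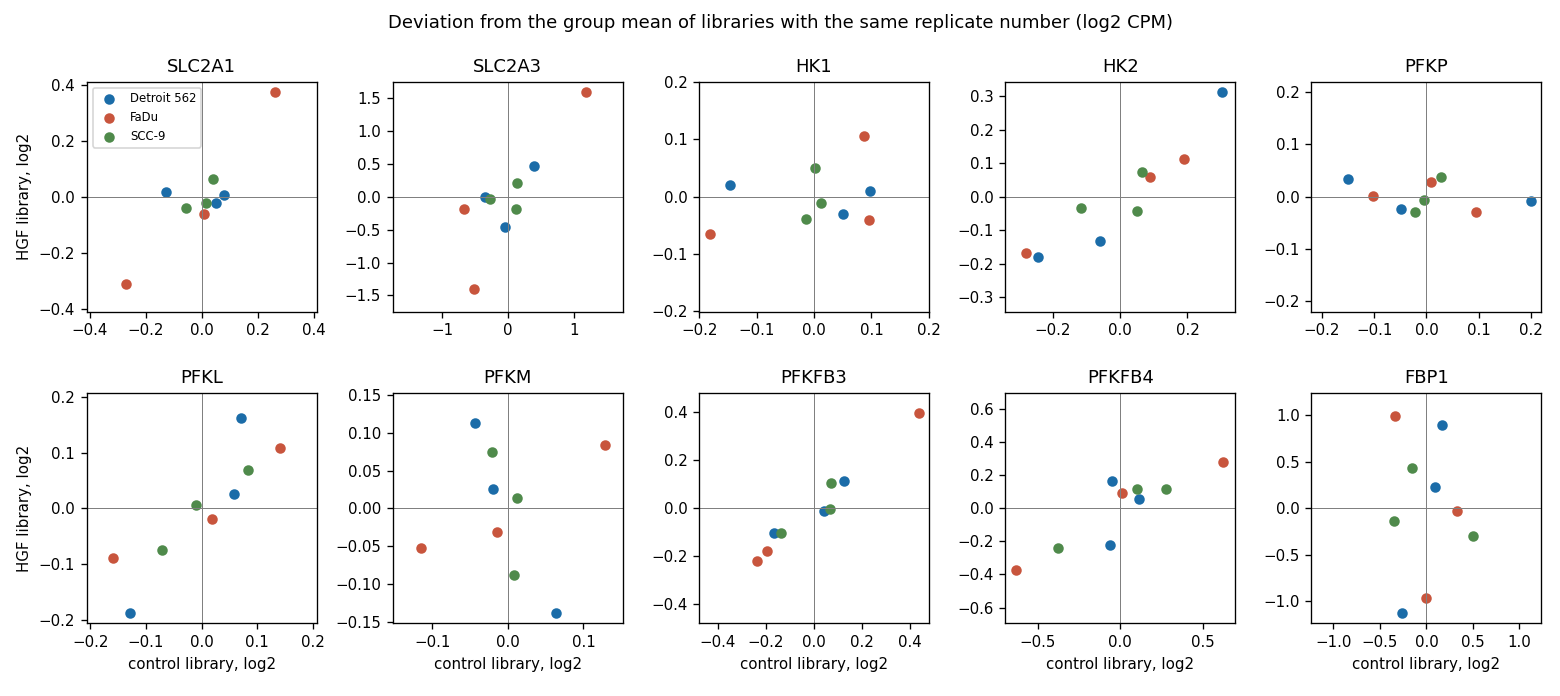
Deviation of each control library from its group mean (x axis) against that of the HGF library with the same line and number (y axis), in log2 CPM, 9 pairs per gene. Points in the upper right and lower left are runs that moved together, 8 of 9 pairs for HK2, SLC2A3 and PFKFB4 and 4 of 9 for FBP1 and PFKM.

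The lines were also compared without HGF. Between untreated Detroit 562 and untreated FaDu, 5 of 10 members were called against 61% of all tested genes. Besides PFKFB3 and FBP1, PFKP was higher in Detroit 562 by 0.64 (SE 0.0729, adjusted p = 5.42e-07), and SLC2A1 and PFKFB4 were lower, by log2 differences of -0.86 (SE 0.138, adjusted p = 2.61e-05) and -0.55 (SE 0.259, adjusted p = 0.0655). The call of PFKFB4 was lost without control replicate 2 of FaDu (-0.19), without control replicate 2 of Detroit 562 (-0.53) or without control replicate 3 of Detroit 562 (-0.52). SLC2A3 was higher in Detroit 562 by 0.89 (SE 0.587, adjusted p = 0.185), and by 1.22 (SE 0.254, adjusted p = 0.000444) with the block, where it was called. It was 1.80 (adjusted p = 0.0206) without control replicate 2 of FaDu and was called, also without HGF replicate 2 of FaDu (0.89, adjusted p = 0.0796). HK2 had a log2 difference of -0.27 and was called only without control replicate 3 of Detroit 562 (-0.44). The block was nested within lines, so its errors for these contrasts leave out the spread between runs.

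Between untreated Detroit 562 and untreated SCC-9, 6 of 10 members were called against 65.4% of all tested genes. PFKL was higher in Detroit 562 by 0.62 (SE 0.0939, adjusted p = 1.26e-05) and PFKM by 0.42 (SE 0.0753, adjusted p = 7.23e-05), besides PFKFB3 and FBP1, while HK2 and PFKFB4 were lower. Without control replicate 3 of Detroit 562 the difference of PFKM was 0.39 and was not called. HK1 was lower in Detroit 562 with a log2 difference of -0.40 (SE 0.0768, adjusted p = 0.000165), -0.399 before rounding, and passed the minimum with the block (-0.40, adjusted p = 8.16e-06) or without control replicate 1 of Detroit 562 (-0.45), control replicate 2 of Detroit 562 (-0.42) or control replicate 2 of SCC-9 (-0.40). SLC2A1, at -0.38 (SE 0.137, adjusted p = 0.0183), was called without control replicate 1 (-0.42) or 2 (-0.41) of Detroit 562 or control replicate 3 of SCC-9 (-0.41). SLC2A3 had a log2 difference of -0.47 (SE 0.543, adjusted p = 0.445), and of -0.49 (SE 0.207, adjusted p = 0.0385) with the block, where it was called.

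Between untreated SCC-9 and untreated FaDu, 7 of 10 members were called against 64.2% of all tested genes. SCC-9 had more PFKP, by 0.83 (SE 0.0731, adjusted p = 1.98e-08), more HK1, by 0.69 (SE 0.0771, adjusted p = 4.31e-07), more SLC2A3, by 1.35 (SE 0.573, adjusted p = 0.0419), and more PFKFB4. It had less PFKM, by a log2 difference of -0.73 (SE 0.0754, adjusted p = 1.52e-07), less PFKL, by -0.64 (SE 0.0939, adjusted p = 9.79e-06), and less SLC2A1, by -0.48 (SE 0.137, adjusted p = 0.00437). The call of SLC2A3 was lost without control replicate 1 (1.06) or 3 (1.02) of FaDu, and that of SLC2A1 without control replicate 2 of FaDu (-0.34). HK2, at 0.27 (SE 0.149, adjusted p = 0.106), PFKFB3 and FBP1 were not called.

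Over the 6 groups, the mean level of a member varied least for HK2, by 1.59-fold between untreated Detroit 562 and HGF-treated SCC-9, and for PFKL, HK1 and PFKM, by 1.66-fold, 1.69-fold and 1.80-fold. It varied by 2.12-fold for PFKP, 2.27-fold for SLC2A1, 2.37-fold for PFKFB3, 3.58-fold for SLC2A3, 6.02-fold for PFKFB4 and 31.1-fold for FBP1. The lowest group of FBP1, HGF-treated SCC-9, had 5 to 10 counts per library, so the size of that range is uncertain. The tested genes with the most similar pattern to HK2 over the 6 group means were PRR7, SLC25A30 and NAF1, at root mean square distances of 0.0662, 0.0826 and 0.0917 log2 units, where HK2 itself spread by 0.255. Among the other members the nearest genes were FAHD2B for SLC2A1, STX1A for SLC2A3, PPM1F for PFKP, CWC22 for PFKM, ABHD11 for PFKFB3, DDX60L for PFKFB4 and HMCN2 for FBP1, at distances of 0.0312 for CWC22 to 0.138 for HMCN2.

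Genes of the later steps and other genes around the members were counted for HGF in Detroit 562. Of 14 genes of lower glycolysis, lactate formation and lactate export, 2 rose and none fell, with a median log2 fold change of 0.22 and 13 of 14 above 0. Over all tested genes 6.16% were called up and 11.7% down, with a median of -0.0056. LDHA, which makes lactate from pyruvate, rose by 0.43 (SE 0.0901, adjusted p = 0.00394). The other was SLC16A1, a lactate carrier named here after its value was seen, which rose by 0.45 (SE 0.133, adjusted p = 0.0225). ENO1 (enolase), LDHB (the other lactate dehydrogenase subunit) and PGK1 (phosphoglycerate kinase) were higher by 0.25, 0.26 and 0.30, with adjusted p of 0.00456, 0.00605 and 0.0197, and fell short of the minimum fold change.

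Of 20 other genes of the same families and of opposing enzymes, 13 could be tested and 3 fell in Detroit 562, all of them sugar carriers, with a median of -0.14. Of all tested genes 11.7% were called down. SLC2A12 fell by 1.83 (SE 0.364, adjusted p = 0.00319) on the log2 scale, from 97 to 281 counts in control to 30 to 65 with HGF. SLC5A1, the sodium-coupled carrier of intestine and kidney, had 14 to 22 counts in control and 4 to 8 with HGF, a log2 fold change of -1.62 (SE 0.457, adjusted p = 0.0177). SLC2A10 fell by 1.14 (SE 0.336, adjusted p = 0.0216). TIGAR, which breaks down fructose 2,6-bisphosphate, was higher by 0.40 (SE 0.102, adjusted p = 0.0111), 0.396 before rounding. The hexokinase gene HK3 and the second bisphosphatase gene FBP2 were among the 7 genes too low to test.

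Of 12 regulators, 11 were tested, and 2 rose and 2 fell in Detroit 562, with a median of -0.04. For these and the hypoxia targets below, the shares of all tested genes were 6.16% called up and 11.7% called down. With the block 21.5% of all tested genes were called. MYC, a transcription factor that binds glycolytic genes, rose by 0.43 (SE 0.0914, adjusted p = 0.00445) and the nuclear receptor gene ESRRA by 0.47 (SE 0.0964, adjusted p = 0.00382). MLXIPL, which encodes the glucose-sensing factor ChREBP, fell by 1.22 (SE 0.23, adjusted p = 0.00245) on the log2 scale. EPAS1, which encodes HIF-2α and is named after its value was seen, fell by 0.50 (SE 0.202, adjusted p = 0.081). With the block TXNIP, also named after its value was seen, was called down as well, at -0.51 (adjusted p = 0.00968). HIF1A was higher by 0.30 (SE 0.0974, adjusted p = 0.0352), below the minimum. Of 9 hypoxia targets outside glycolysis, 1 rose and none fell, with a median of -0.09. This was BNIP3, a mitochondrial protein, which rose by 1.09 (SE 0.208, adjusted p = 0.00263). P4HA1, DDIT4 and ANKRD37 were next by p, with log2 fold changes of 0.40, -0.99 and 0.29 and adjusted p of 0.0226, 0.189 and 0.406. P4HA1 stood at 0.396 before rounding and was not called. With the block DDIT4 was called, at -0.95 (adjusted p = 7.66e-06). The hypoxia marker CA9 had 0 to 4 counts in Detroit 562. In FaDu and SCC-9 none of the genes of these 4 lists was called without the block (0.0258% and 0% of all tested genes). DESeq2, with or without its prior, called 0 of them as well. In FaDu 4 of their tested genes and in SCC-9 3 had an unadjusted p under 0.05, beside 8.06% and 4.14% of all tested genes. With the block, 3 of the 13 family genes fell in FaDu and 2 in SCC-9, as did 1 of the 11 regulators in FaDu. The block called 5.6% of all tested genes in FaDu and 1.97% in SCC-9.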

How the data were processed

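The authors prepared stranded mRNA libraries, removed adapters with Cutadapt and mapped the reads with STAR 2.5.2b to GRCh38.p12 and GENCODE 28. They counted with bedtools, for each gene, the reads on its strand anywhere between its ends. The deposited values are integer raw counts that were not normalized. Counts of genes that overlap on 1 strand are therefore not independent.

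Counts were analyzed in R 4.3.3 with edgeR 4.0.16 (filterByExpr, TMM, a quasi-likelihood fit of the 6 groups over 18 libraries, Benjamini-Hochberg adjustment over 15475 genes). Unless another tool is named, adjusted p-values are edgeR's. Calls used the study's thresholds, 0.1 for the adjusted p and 0.4 for the size of the log2 fold change, and differences in response used the first alone. Levels are TMM-normalized CPM, divided by the kilobases of the union of exons in GENCODE 44 where genes are compared. Because reads in introns were counted too, levels per kilobase and shares between genes are approximate. The part of intron reads was not tested. Shares were compared with two-sided exact permutation tests, which with 3 against 3 cannot go below 0.1.

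The members and lists were chosen with earlier results of these data known. All 10 members were named, and of each list the genes with the smallest p, at most 4, plus any gene said to be named after its value was seen. CA9, HK3, FBP2 and the marker genes were also named after their values were seen. Alternatives were a block for the replicate number (nested in line), DESeq2 size factors in edgeR, no filter, DESeq2 1.42.0 with and without its prior, fits to 1 line's 6 libraries, calls without a minimum fold change, each library left out and, for shares, no division by length.

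Same-numbered control and HGF libraries deviated together across genes, with correlations of 0.161 to 0.454 in Detroit 562, 0.376 to 0.563 in FaDu and 0.203 to 0.332 in SCC-9. Libraries with different numbers had mean correlations of -0.144, -0.227 and -0.136 in these lines. Deviations from a group's own mean cancel out within the group, so these negative values follow from the positive ones and add no separate evidence. The numbers were taken to pair the libraries because of the same-number correlations alone. In Detroit 562 control replicate 1 and HGF replicate 2 had a correlation of 0.218, above the 0.161 of the replicate 2 pair. Runs 1 and 2 of that line are thus not clearly told apart. The other assays of the study were not analyzed here.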

Additional observations from a re-analysis of the deposited data

Results flagged for a closer look

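Differences between the lines in the response to HGF passed the test for 8 member results when the replicate number was a block, and for none of the members without it. Detroit 562 minus FaDu differed by 0.26 for HK2, 0.29 for PFKP and -0.40 for PFKFB3 on the log2 scale, with adjusted p from edgeR of 0.0327, 0.0406 and 0.00147. Detroit 562 minus SCC-9 differed by -0.36 for SLC2A1, 0.53 for HK2, 0.31 for PFKP, -0.17 for PFKL and -0.41 for PFKFB3, with adjusted p of 0.0036, 0.000296, 0.0229, 0.0679 and 0.000621. These are 3 of 10 and 5 of 10 members, beside 19.1% and 26.9% of all tested genes that the block called in the 2 contrasts. Groups of 3 libraries were too small to examine for single outlying values.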

How the results depend on the processing

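With DESeq2 size factors, without the filter, with DESeq2 with or without its prior and with the 6 libraries of 1 line, every count of called members kept its value. Without a minimum fold change 6 members were called in Detroit 562 (3 up and 3 down, beside 34.1% of all tested genes) and 4 in the average effect (beside 28.2%). With the replicate block the count went from 0 to 1 for the average effect, from 0 to 3 for Detroit 562 minus FaDu and from 0 to 5 for Detroit 562 minus SCC-9. Besides these, the block called SLC2A3 with HGF in Detroit 562, and SLC2A3 in untreated Detroit 562 minus FaDu and minus SCC-9 and HK1 in the latter, and it changed no other call of a member. For HK1 in Detroit 562 the value was 0.00292 without the filter. When 1 library was left out, the counts ranged from 2 to 4 in Detroit 562, 0 to 2 for the average effect, 0 to 1 for Detroit 562 minus FaDu and 0 to 2 for Detroit 562 minus SCC-9. The counts of the last 2 left 0 only without control replicate 3 of Detroit 562. They ranged from 4 to 6, 5 to 8 and 6 to 7 for the untreated contrasts in the order given above. Ranges that crossed 0 were, with HGF, -0.0773 to 0.04 for HK1 in Detroit 562, -0.114 to 0.0187 for HK1, -0.174 to 0.304 for PFKFB3, -0.872 to 0.341 for FBP1, -0.483 to 0.146 for PFKFB4 and -0.827 to 1.34 for SLC2A3 in FaDu, and -0.308 to 0.00281 for PFKFB4 and -0.352 to 0.349 for FBP1 in SCC-9. They were -0.093 to 0.055 for PFKL in untreated Detroit 562 minus FaDu and -0.0126 to 0.358 for PFKFB3 in untreated SCC-9 minus FaDu. Shares crossed 0 at -0.0317 to 0.161 points for SLC2A3 in FaDu, -0.0723 to 0.732 for PFKM in SCC-9 and -0.0711 to 0.235 for PFKFB4 in Detroit 562. Where no other reason is given, the cause was not tested. SLC2A3 had 11 to 140 counts per library and FBP1 outside Detroit 562 had 3 to 17, and the part of depth in their wide intervals was not tested.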
